A study of Brassica napus with 12 samples.

Results

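In immature rapeseed (Brassica napus) seeds, 176 genes were both abundant in the inbred line SW and well above their level in each of the other lines A28, R8Q10 and YH25005. A gene entered this set, called the SW set here, when its mean in SW was at least 150 CPM (the count relative to the library's total, scaled to a total of 1000000 counts) and at least 2 times its mean in each other line. The choice was made among the 41615 annotated genes present in all 12 libraries, of 50338 genes found in any library. The genes were thus chosen by their CPM in SW against each other line, and those values are described below without a test. Of 751 annotated genes with at least 150 CPM in SW, 23.4% were in the set. The same rule with another line in the place of SW found 52 genes for A28 (7.39% of its abundant genes), 85 for R8Q10 (12.6%) and 109 for YH25005 (17.5%).

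The study compared 4 inbred lines that differ in linolenic acid, one of the unsaturated fatty acids in rapeseed oil, with 3 libraries per line. Plants grew in 1 experimental field, their flowering branches were bagged so that the seeds came from selfing, and material was taken 24 days after pollination. The labels call the material seeds in one place and embryos in another, and they do not say which line is high and which is low in linolenic acid. No label states that the replicates came from separate plants, so p-values measure only how these samples vary, which may be technical variation. Library totals lay between 30150457 and 40762254 counts. A change in bulk tissue can come from the number of cells of a type or from RNA per cell, and these cannot be told apart.

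In the middle of seed development the rapeseed embryo fills with storage protein and oil, and later it acquires tolerance to drying. Much of the RNA at this stage comes from a small number of gene families, those of the storage and oil body proteins in particular. Rapeseed carries an A and a C subgenome, from its parents Brassica rapa and Brassica oleracea, and most genes have a close copy in the other subgenome. The gene ID names the subgenome and usually the chromosome, and the number in it follows the order along the chromosome. How reads shared by both copies were counted was not given in the sources used here, so levels of single copies carry that uncertainty. The IDs could not be tied to gene names or functions, so the tissue could not be checked against seed markers and each gene is described by its ID.

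The 176 genes held a large part of the RNA of SW. They took 8.57%, 12.6% and 11.6% of the counts in SW replicates 1, 2 and 3, which is 10.9% ± 2.11 (SD, n = 3). They took 2.56%, 3.37% and 2.61% in A28, with a mean of 2.85% ± 0.456 (SD, n = 3). In R8Q10 they took 1.99%, 2.73% and 1.99%, with a mean of 2.24% ± 0.428 (SD, n = 3). In YH25005 they took 1.51%, 2.39% and 2.46%, with a mean of 2.12% ± 0.532 (SD, n = 3). All SW libraries lay above all others, as the rule makes likely. R8Q10 overlapped with both A28 and YH25005, while over library totals the lowest A28 library lay above the highest YH25005 library. With TMM (trimmed mean of M-values) scaling of the totals this separation was not seen. The shares were then 2.32%, 2.99% and 2.51% in A28 and 1.93%, 2.61% and 3.21% in YH25005. In R8Q10 they were 1.84%, 2.39% and 1.91%. The test of the spread between the means of these 3 lines, which ignores replicate numbers, did not pass (exact permutation test over 280 partitions, one-sided, p = 0.214, smallest possible p 0.00357). By replicate number A28 exceeded R8Q10 in 3 of 3 pairs, by 0.562, 0.638 and 0.621 percentage points, a mean of 0.607 ± 0.0399 (SD, n = 3). An exact two-sided sign-flip test of these pairs, added after seeing the data, gave p = 0.25, the smallest that 3 pairs allow. The 10 most abundant genes alone took 1.9%, 3.07% and 2.94% of the counts in the SW libraries.

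**Figure D1:**
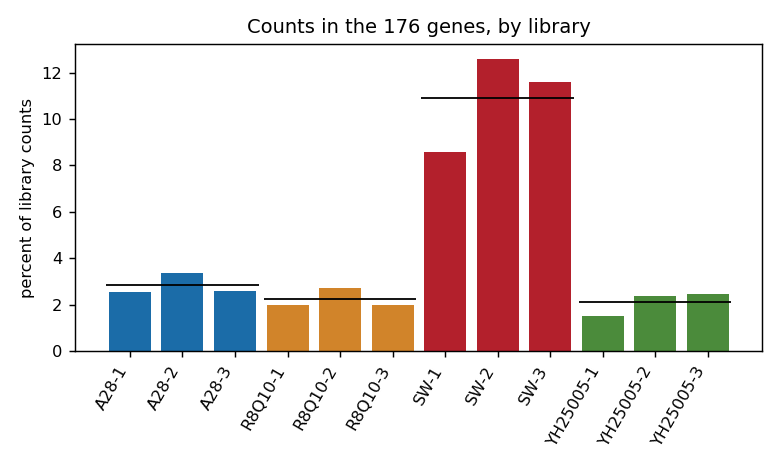
Percent of each library's counts in the 176 genes (vertical axis, from 0) for the 12 libraries, coloured by line; the black lines are line means. The SW bars reach 8.57% to 12.6%, and the highest bar of another line is A28 replicate 2 at 3.37%.

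The bars show that the low SW replicate 1 still stood well above every library of the other lines. Replicate 2 was the highest library in A28, R8Q10 and SW, and replicate 1 was the lowest in A28, SW and YH25005.

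Levels in SW ranged from 150.5 to 3573 CPM with a median of 371.6 CPM. The medians of the same genes were 87.56 CPM in A28, 70.45 CPM in R8Q10 and 72.34 CPM in YH25005. In SW 31 genes reached at least 1000 CPM and 72 stayed under 300 CPM. The ratio of the SW mean to the next line had a median of 3.24 and quartiles of 2.42 and 4.70. It was at least 3 in 99 genes, at least 5 in 38, at least 10 in 8 and at least 20 in 2. The next line was A28 in 100 genes, R8Q10 in 55 and YH25005 in 21, and the lowest line was YH25005 in 80, R8Q10 in 68 and A28 in 28. These orders are by CPM without TMM scaling, which would raise YH25005 relative to the other lines. They were not counted with TMM scaling. All 3 SW libraries lay above all 9 others in 163 of the 176 genes (92.6%), against 5.06% of all genes tested, a contrast that the rule itself used.

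**Figure D2:**
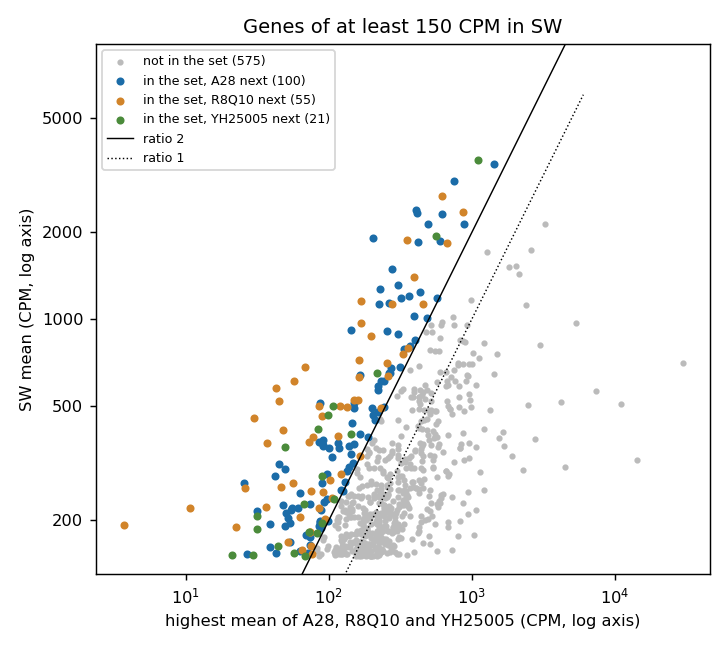
Mean CPM in SW (vertical log axis) against the highest mean of the other lines (horizontal log axis) for the 751 annotated genes of at least 150 CPM in SW. Grey points are the 575 genes outside the set and coloured points are the 176 genes, by the line that came next; the solid line marks a ratio of 2.

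The plot of SW level against the next line shows genes of the set over the whole range of SW levels. The genes of highest ratio lie at the left, at moderate levels in SW, and those that came next in R8Q10 are frequent among them. The most abundant genes of the other lines, to the right, are outside the set.

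By CPM, which is not divided by gene length, BnaA01g30490D on chromosome A1 was the most abundant. It had 2312, 4307 and 4101 CPM in SW, a mean of 3573 ± 1097 (SD, n = 3). Its values were 889, 872 and 515 CPM in A28, 840, 810 and 855 CPM in R8Q10, and 690, 1424 and 1208 CPM in YH25005. SW replicate 1 was the lowest SW library but still lay above the highest library of any other line. On the log2 scale with TMM (trimmed mean of M-values) scaling, SW was higher by 2.34 (SE 0.43) than A28, 2.19 (SE 0.43) than R8Q10 and 1.38 (SE 0.42) than YH25005.

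BnaC03g37680D followed with 2564, 3895 and 3856 CPM in SW. A28 came next with 1702, 1307 and 1262 CPM, R8Q10 had 810, 816 and 837 CPM, and YH25005 had 489, 772 and 789 CPM. The difference of SW was smallest against A28, at 1.36 (SE 0.37) on the log2 scale. BnaA07g31420D had 2247, 3811 and 2999 CPM in SW, 686, 881 and 690 CPM in A28, 486, 700 and 544 CPM in R8Q10, and 381, 886 and 808 CPM in YH25005. The 3 other lines overlapped for this gene, and the ratio to A28 was 4.01.

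BnaC08g16850D had 1580, 3072 and 3370 CPM in SW, and its next line was R8Q10 with 556, 733 and 548 CPM. BnaA03g03740D had 1972, 2362 and 2818 CPM in SW against 438, 378 and 398 CPM in A28, 312, 456 and 388 CPM in R8Q10, and 174, 315 and 220 CPM in YH25005. It had the highest ratio among the 10 genes of highest SW mean, at 5.89. BnaA08g23680D came close with a ratio of 5.68, from 1337, 2717 and 2947 CPM in SW and 264, 592 and 377 CPM in A28. BnaC05g12240D had 1345, 2460 and 2624 CPM in SW and a ratio of 4.38. None of the contrasts between A28, R8Q10 and YH25005 passed for these 4 genes.

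BnaC04g01000D was the exception among the 10. It had 1863, 3066 and 2017 CPM in SW, 492, 746 and 614 CPM in A28, 233, 257 and 136 CPM in R8Q10, and 303, 646 and 599 CPM in YH25005. R8Q10 lay below every library of the other lines. It was higher in A28 than in R8Q10 by 1.58 on the log2 scale (SE 0.40, adjusted p = 0.016) and R8Q10 minus YH25005 was −1.72 (SE 0.41, adjusted p = 0.0109). The remaining 2 of the 10, BnaC04g40580D with a mean of 2358 ± 487 CPM and BnaC04g54510D with 2139 ± 196 CPM (SD, n = 3), had ratios of 2.71 and 2.42. In all 10 genes SW replicate 1 was the lowest SW library and YH25005 replicate 1 the lowest YH25005 library.

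**Figure D3:**
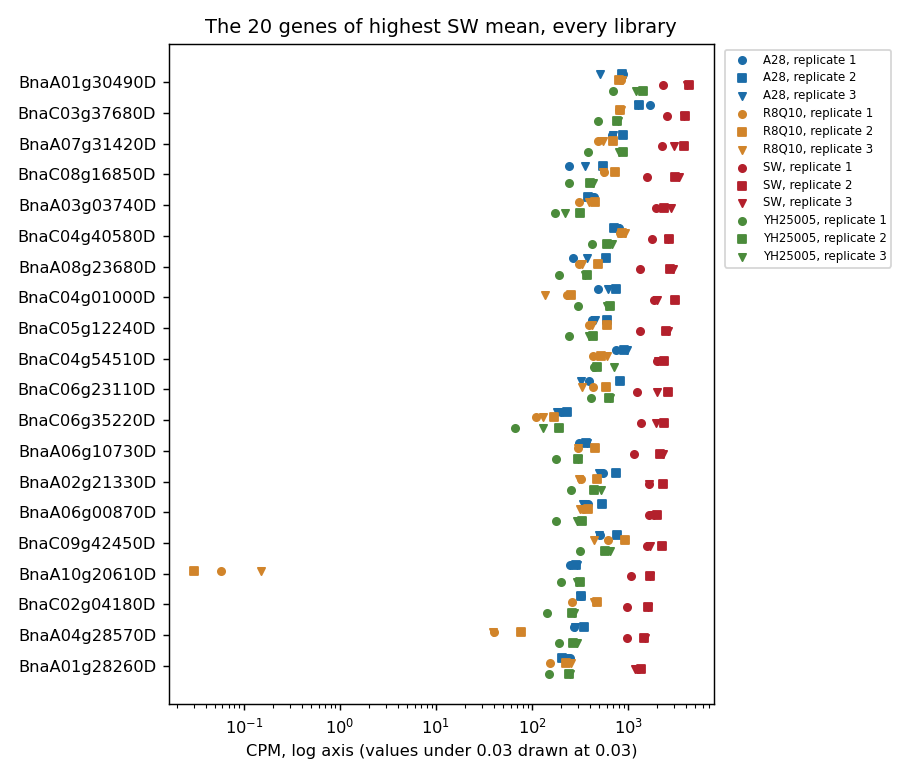
CPM in every library (horizontal log axis) for the 20 genes of highest SW mean, ordered from the top; colour marks the line and symbol the replicate. In all 20 genes the 3 SW points lie to the right of every other point, with SW values from 977 to 4307 CPM, and BnaA10g20610D in R8Q10 lies far to the left.

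The plot of the 20 genes shows that the other lines formed 1 loose cluster in most of them. Of the 20 genes, 3 passed in at least 1 contrast between A28, R8Q10 and YH25005, against 42.9% of all genes tested. They were BnaC04g01000D, BnaA10g20610D and BnaA04g28570D, in each of which R8Q10 was low. BnaA04g28570D had 981, 1464 and 1486 CPM in SW, 276, 347 and 283 CPM in A28, 39.9, 77.4 and 39.6 CPM in R8Q10, and 192, 264 and 295 CPM in YH25005.

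The 10 genes of highest ratio were less abundant, and 4 of them (40%) passed in at least 1 contrast between A28, R8Q10 and YH25005. Of all genes tested, 42.9% did so. BnaA06g35390D stood apart with a ratio of 52.3, from 246, 204 and 130 CPM in SW and 1.54 to 5.69 CPM in the 9 other libraries. It was the only one of the 10 in which SW replicate 1 was the highest SW library. BnaC09g54690D followed at 20.6, with 183, 235 and 243 CPM in SW and 4.15, 24.5 and 3.36 CPM in R8Q10.

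BnaA09g23670D, at a ratio of 15.1, had 220, 513 and 623 CPM in SW and 18, 57 and 15 CPM in R8Q10. In A28 it had 0, 2 and 0 counts and in YH25005 0, 0 and 2 counts, below the 3 counts that a listing of 0 allows in a single library. It was therefore near the detection limit in A28 and YH25005, and R8Q10 was higher than A28 (adjusted p = 3.26e-05) and than YH25005 (adjusted p = 4.92e-05). BnaC09g01520D, outside the 10 by ratio and named after its values were seen, shared this pattern. It had 271, 346 and 165 CPM in SW, 34.2, 84.6 and 20.9 CPM in R8Q10, and at most 0.307 CPM in any library of A28 or YH25005.

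BnaA10g12710D had 307, 712 and 714 CPM in SW and 23.3, 83.0 and 21.1 CPM in R8Q10. BnaC02g44300D had 271, 567 and 716 CPM in SW and 26.2, 82.2 and 26.3 CPM in R8Q10. BnaA03g09300D had 329, 828 and 893 CPM in SW and 43.2, 126 and 34.9 CPM in R8Q10. In each of these SW replicate 1 was the lowest SW library, and R8Q10 replicate 2 exceeded the other R8Q10 libraries several times over. BnaA02g06890D showed the same order, with 211, 415 and 484 CPM in SW, 18.3, 76.5 and 16.8 CPM in R8Q10 and no more than 2.83 CPM in YH25005.

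By CPM without TMM scaling, R8Q10 was the next line in 9 of the 10 genes of highest ratio. In the TMM fit R8Q10 was not above YH25005 in BnaC09g54690D and BnaA06g18110D. Their log2 differences, R8Q10 minus YH25005, were −0.0783 (SE 0.722) and −0.00322 (SE 0.37). R8Q10 replicate 2 was the highest R8Q10 library in 9 of the 10 genes. A28 replicate 2 was the highest A28 library in 9, and SW replicate 1 the lowest SW library in 9. BnaA06g18110D, BnaC04g00330D and BnaC05g01700D completed the 10 with ratios of 10.6, 10.5 and 9.998, and of these BnaC04g00330D had A28 as the next line.

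At the edges of the rule the values were close together. The genes just inside the level of 150 CPM were BnaA10g07780D at 150.5, BnaC06g09690D at 151.5 and BnaC07g32600D at 151.8 CPM, and those just outside were BnaA05g00720D at 146.2, BnaAnng24560D at 145.9 and BnaA05g20960D at 145.7 CPM. Just inside the ratio of 2 were BnaA10g26640D, BnaC05g23020D and BnaA06g37780D, at 2.00 to 2.02. Just outside were BnaC03g13870D, BnaA10g14250D and BnaC06g28380D, at 2.00 (below the limit before rounding), 1.98 and 1.94.

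The rule used means and set no limit on the evenness between SW replicates. A gene can still enter through 1 high SW library, so the choice can affect this spread. The comparisons with other genes below are therefore a description. The coefficient of variation (CV, the SD divided by the mean) of CPM over the 3 SW libraries had a median of 26.7% in the set and quartiles of 17.7% and 37.8%. Over the other abundant SW genes the median was 23.6%. The same 176 genes had median CVs of 28.1% in A28, 29.1% in R8Q10 and 28.4% in YH25005, where the other abundant SW genes had 40.6%, 29.6% and 17.8%. The genes were thus about as uneven in SW as in the other lines. Without SW replicate 1 the median CV in SW was 15.2%, without SW replicate 2 it was 28.4% and without SW replicate 3 it was 24.5%.

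SW replicate 1 was the lowest SW library in 108 genes of the set (61.4%), against 21.7% of the other abundant SW genes. SW replicate 3 was the lowest in 56 (31.8%, against 58.4%) and SW replicate 2 in 12. With TMM scaling SW replicate 1 was the lowest in 67.0% of the set and 26.3% of the other abundant genes. Whether the libraries or the material behind them differ was not tested. The same kind of imbalance appeared in the other lines: YH25005 replicate 1 was the lowest YH25005 library in 151 genes (85.8%, against 44.9%), and R8Q10 replicate 2 was the highest R8Q10 library in 127 (72.2%, against 51.0%). A28 replicate 2 was the highest A28 library in 121 genes (68.8%, against 52.3%).

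**Figure D4:**
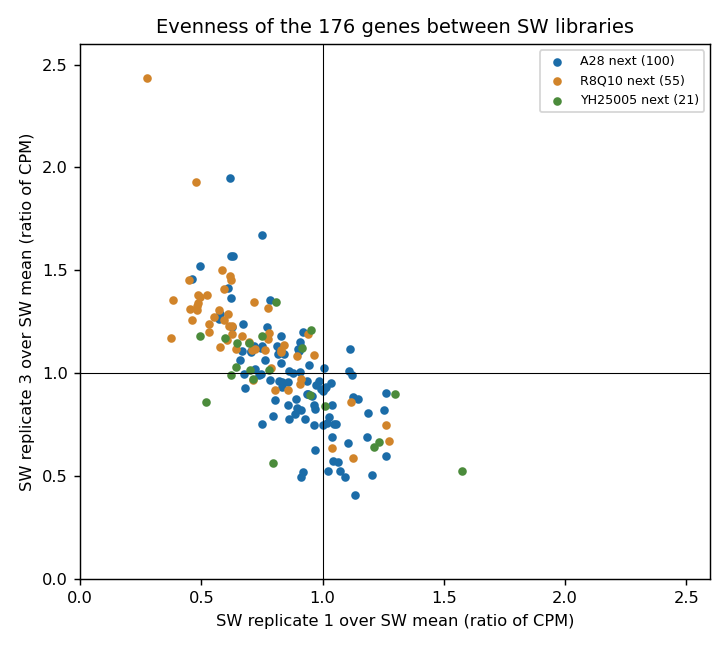
CPM in SW replicate 1 (horizontal axis) and SW replicate 3 (vertical axis), each divided by the SW mean, for the 176 genes, coloured by the line that came next; a value of 1 equals the SW mean. Points left of the vertical line are low in replicate 1, and points below the horizontal line are low in replicate 3.

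The plot of SW replicates 1 and 3 shows 2 arms that go in opposite directions. The ratios of a gene to its SW mean have a fixed sum over the 3 SW libraries. A gene low in replicate 1 or 3 is thus pushed towards high in the other, so part of this opposition follows from the scaling. The arm at the upper left holds most of the genes that came next in R8Q10, and the arm at the lower right is mostly genes that came next in A28. Of the 56 genes lowest in SW replicate 3, A28 was the next line in 45 (80.4%) and R8Q10 in 5. Of the 108 genes lowest in SW replicate 1, A28 was next in 47 (43.5%) and R8Q10 in 48. In the 56 genes 25 (44.6%) passed as higher in A28 than in R8Q10 and 2 (3.57%) as lower, while in the 108 genes 9 (8.33%) passed as higher and 8 (7.41%) as lower. Over all genes tested 12% passed as higher and 9.63% as lower. These groups were formed from the measured values, so their counts are a description.

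BnaA07g22300D and BnaA03g22890D, named after their values were seen, show the arm low in SW replicate 3. BnaA07g22300D had 921, 1190 and 418 CPM in SW, 293, 549 and 359 CPM in A28, 81.0, 89.0 and 50.9 CPM in R8Q10, and 171, 256 and 247 CPM in YH25005. Its lowest SW library lay below the highest A28 library. BnaA03g22890D had 859, 1248 and 556 CPM in SW, 230, 388 and 290 CPM in A28, and 80.2, 118 and 69.5 CPM in R8Q10. Both were higher in A28 than in R8Q10, by 2.45 (SE 0.42, adjusted p = 0.00146) and 1.77 (SE 0.37, adjusted p = 0.00552) on the log2 scale.

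The least even genes rested on 1 SW library. BnaC01g31340D had the highest CV, 124%, with 49.9, 52.7 and 442 CPM in SW, and its first 2 values lay below all R8Q10 libraries, at 58.7 to 85.4 CPM. BnaA05g14600D had 96.7, 68.2 and 306 CPM in SW, and BnaC05g15780D had 79.7, 100 and 322 CPM. BnaA02g36030D had 370, 285 and 822 CPM, so in these 4 genes replicate 3 was the high one. BnaC07g32600D, with 121, 249 and 85.4 CPM, was instead highest in replicate 2.

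BnaA05g12530D was the most even gene of the set, with 655, 629 and 668 CPM in SW and a CV of 3.04%. Its values were 246, 277 and 285 CPM in A28, 8.67, 0.18 and 0.0306 CPM in R8Q10, and 12.5, 24.6 and 5.13 CPM in YH25005. It was thus even in SW and A28 and uneven at a low level in the other lines, and it was higher in A28 than in R8Q10 (adjusted p = 0.00773) and than in YH25005 (adjusted p = 0.0434). BnaAnng36200D, BnaC02g45740D, BnaA07g38860D and BnaA03g02620D followed with CVs of 4.45%, 4.47%, 5.18% and 6.38%. They had 143 to 285 CPM in the SW libraries.

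Membership itself depended on single SW libraries for 38 genes. When each SW library was left out in turn, 138 genes met the rule every time. Without SW replicate 1, 6 genes were lost, without SW replicate 2, 23, and without SW replicate 3, 13. Every SW library reached 150 CPM in 137 genes. Every SW library reached both 150 CPM and 2 times every library of the other lines in 63 genes. In 13 genes at least 1 SW library lay at or below a library of another line, among them BnaC01g31340D, BnaA05g14600D and BnaA07g22300D.

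The order of A28, R8Q10 and YH25005 was not used by the rule, but the rule bounded the level of each from above by the SW mean. The shares below, set against all genes, can therefore be shaped by the choice, and how far was not tested. The order was tested with edgeR's quasi-likelihood test over all 43708 genes. In the set 47 genes (26.7%) differed between A28 and R8Q10, against 21.7% of all genes. Of these, 37 (21.0%, against 12% of all genes) were higher in A28 and 10 (5.68%, against 9.63%) were lower. Over the other abundant SW genes 14.3% were higher in A28 and 5.39% lower. Among the 37 genes the median difference was 1.85 on the log2 scale. The median log2 difference over all members was 0.21, and over all genes it was 0.06. A fit of these 2 lines alone, with the replicate number as a block, called 59 of 176 genes against 20.9% of all genes. Of these, 39 were higher in A28 and 20 lower. This fit was chosen after seeing the data.

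Between R8Q10 and YH25005, 46 genes (26.1%) differed, against 23.4% of all genes. In R8Q10 34 of them (19.3%, against 12.7%) were lower and 12 (6.82%, against 10.7%) were higher. Among the other abundant SW genes 16.7% were lower and 5.04% higher, so the lean towards lower values in R8Q10 was shared by abundant genes outside the set. The median log2 difference over the set was −0.29 with TMM scaling and 0.14 without, and over all genes it was 0.02 and 0.39. For A28 minus YH25005 the median over all genes likewise moved from 0.063 with TMM scaling to 0.435 without. For R8Q10 minus YH25005 the sign of the set's median thus changed without scaling, while relative to all genes it stayed below.

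Between A28 and YH25005 only 26 genes (14.8%) differed, against 27.2% of all genes and 24.5% of the other abundant SW genes. Of these, 13 (7.39%) were higher in A28 (against 14.5%) and 13 were lower (against 12.7%). The count was 17 when A28 replicate 1 was left out (against 21.9% of all genes then), 13 without YH25005 replicate 1 (against 17.1%), and 16 when YH25005 replicate 3 was left out (against 17.3%). The even split also rested on single libraries. Without A28 replicate 2, 10 were higher and 25 lower, against 36.4% of all genes in either direction. Without YH25005 replicate 1, 4 were higher and 9 lower. In a fit of these 2 lines alone with the replicate number as a block, 14 of 174 genes passed against 8.5% of all genes, so the low share was not seen there. Over the 3 lines together 64 genes (36.4%) differed in the F test, against 38.8% of all genes, which is near the background. All 3 contrasts share libraries in pairs and are not independent.

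Within the set, the lowest adjusted p-values in both contrasts with R8Q10 came from genes near 0 in that line. Fitted differences of similar size, in the opposite direction, belonged to BnaA09g23670D and BnaC09g01520D, described above, which were near 0 in A28 and YH25005. BnaA10g20610D had 1066, 1709 and 1686 CPM in SW, 247, 285 and 296 CPM in A28, and 202, 312 and 292 CPM in YH25005. In R8Q10 it had 2, 0 and 5 counts, or 0.0572, 0 and 0.153 CPM. A28 was higher than R8Q10 (adjusted p = 9.1e-07) and R8Q10 lower than YH25005 (adjusted p = 9.54e-07), and the fitted sizes of 11.92 and −12.29 on the log2 scale depend on how near-zero counts are treated. A28 and YH25005 overlapped for this gene.

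BnaC01g40000D likewise had 0, 0 and 4 counts in R8Q10, beside 164, 187 and 136 CPM in SW, 12.5, 23.4 and 16.3 CPM in A28 and 42.3, 49.3 and 40.3 CPM in YH25005. Its 4 lines did not overlap, with SW highest, then YH25005, then A28. The adjusted p was 3.66e-06 for A28 against R8Q10, 1.4e-06 for R8Q10 against YH25005 and 0.0126 for A28 against YH25005.

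BnaA10g18730D had 489, 696 and 769 CPM in SW, 47.4, 98.1 and 85.1 CPM in A28, 1.66, 0.412 and 1.53 CPM in R8Q10 and 156, 200 and 289 CPM in YH25005. It was again lowest in R8Q10, higher in A28 by 5.99 (SE 0.60, adjusted p = 2.71e-05) on the log2 scale. R8Q10 minus YH25005 was −7.90 (SE 0.66, adjusted p = 6.83e-06).

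YH25005 was the low line in another group. BnaC03g37960D had 87.2, 131 and 82.3 CPM in A28, 69.4, 114 and 68.2 CPM in R8Q10 and 2.52, 8.95 and 4.36 CPM in YH25005, against 235, 456 and 378 CPM in SW. A28 was higher than YH25005 by 3.87 (SE 0.45, adjusted p = 0.000126). BnaA03g37240D had 210, 245 and 206 CPM in A28 and 32.8, 62.1 and 39.2 CPM in YH25005, a difference of 1.91 (SE 0.26, adjusted p = 0.000317). In both genes A28 and R8Q10 overlapped, between SW above and YH25005 below.

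On the chromosomes, 95 of the 176 genes (54.0%, 95% exact binomial interval 46.3% to 61.5%) carried an A subgenome ID and 81 (46.0%) a C subgenome ID. The A share was 50.8% among the other abundant SW genes and 48.4% among all annotated genes, both inside that interval, which covers counting error only. Of the counts in the set, A subgenome genes took 52.2% ± 1.14 in SW, 52.5% ± 0.9 in A28, 49.5% ± 0.737 in R8Q10 and 53.6% ± 1.06 in YH25005 (SD, n = 3 each). The balance between subgenomes within the set was therefore close to even in every line. Among the other abundant SW genes YH25005 stood higher, at 58.2% ± 1.42 (SD, n = 3).

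Chromosome A3 held 22 of the genes (12.5%, interval 8.0% to 18.3%), against 6.79% of all annotated genes and 6.26% of the other abundant SW genes. Chromosome C5 held 18 (10.2%, interval 6.17% to 15.7%), against 5.43% and 6.96%. Chromosomes A5 and A10 held 11 each, C3 and C4 12 each, and 10 genes had no chromosome in the ID. With 19 chromosomes viewed, these shares are a description.

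**Figure D5:**
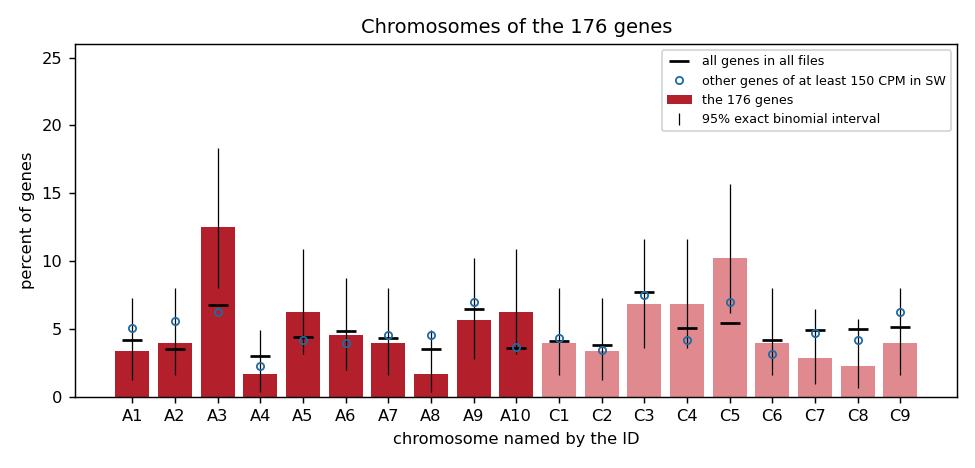
Percent of the 176 genes on each chromosome named by the ID (bars, from 0; A subgenome dark, C subgenome light) with 95% exact binomial intervals. Black dashes show all annotated genes and open circles the other abundant SW genes; A3 at 12.5% and C5 at 10.2% are the tallest bars.

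In the plot of chromosomes the interval of A3 lies above both reference marks and that of C5 above the black dash only. At the start of A3, 5 of 312 genes were in the set (1.6%, against 0.423% of all annotated genes), and 9 were abundant in SW. The 5 are BnaA03g00850D, BnaA03g01450D, BnaA03g02620D, BnaA03g03450D and BnaA03g03740D. The other 307 genes there also tended to be higher in SW, with a median of 0.61 on the log2 scale above the mean of the other lines. This was not particular to A3, as genes outside the set on distal A10 had a median of 0.603. The measure was not taken over all genes. The matching start of C3 held 0 genes of the set among 246, and its genes had a median of −3.08 in SW. The intervals on A3 and C3 were taken from an earlier description of these data, so they lend no independent support.

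On the distal part of A10, 3 genes of the set, BnaA10g18730D, BnaA10g20560D and BnaA10g20610D, lay among 643 genes. The other 640 had a median of −3.83 on the log2 scale in R8Q10 against the mean of the other lines. The R8Q10 levels near 0 of BnaA10g18730D and BnaA10g20610D thus fell in a stretch where R8Q10 was low in general, while BnaA10g20560D kept 21.5 ± 5.13 CPM there (SD, n = 3).

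Some genes of the set were neighbours. Near the end of A10, BnaA10g26360D, BnaA10g26450D, BnaA10g26640D and BnaA10g26760D lay within 25 consecutive listed genes. SW had 250 ± 41.7, 239 ± 48.2, 153 ± 39.3 and 203 ± 101 CPM for them, in that order (SD, n = 3). By CPM without TMM scaling, YH25005 was the lowest line for all 4. It had 21.3 ± 3.67, 58.9 ± 7.49, 25.1 ± 5.46 and 26 ± 4.78 CPM. For BnaA10g26450D, A28 had 80.4 ± 50.1 CPM, so these lines differed by less than the SD of A28. TMM scaling would raise YH25005 relative to the other lines, and the order was not taken with it. Of these, BnaA10g26360D passed as higher in A28 than in YH25005, by 1.40 (SE 0.21, adjusted p = 0.000675), and BnaA10g26640D did not (adjusted p = 0.0873). Both passed as higher in R8Q10 than in YH25005, by 1.68 (SE 0.21, adjusted p = 0.000171) and 1.21 (SE 0.277, adjusted p = 0.00939). Contrasts for BnaA10g26450D and BnaA10g26760D are not given here, so a low level in YH25005 is not shown for them.

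In 7 pairs, 14 genes in all, the IDs were consecutive. The same count was not made for genes outside the set. The A10 group above was found by searching for windows rich in genes of the set, so both are a description. BnaC04g54510D and BnaC04g54520D on C4 had 2139 and 912 CPM in SW, ratios of 2.42 and 6.43, and similar lengths of 554 and 550 bases. BnaA05g12530D and BnaA05g12540D on A5 had 650 and 284 CPM and lengths of 556 and 565 bases. The other pairs differed in length, as in BnaC05g12230D and BnaC05g12240D with 3352 and 1831 bases. Consecutive genes of like length may be close copies between which reads can be split, so their single levels are uncertain.

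Gene lengths were not in the files, but the count divided by the deposited FPKM (fragments scaled to gene length and library size) gave an approximate length. Its median was 1432 bases in the set, 1464 in the other abundant SW genes and 1536 in all annotated genes. Genes of 500 to 600 bases were more frequent in the set, 21 of 176 (11.9%), against 3.48% of the other abundant SW genes and 3.43% of all annotated genes. This narrow range was chosen with these data known, so its share is a description. Wider ranges differed less from the other abundant SW genes. Under 1000 bases the shares were 33.5% and 27.8%, and over 2000 bases 34.1% and 30.4%. The approximate length also varied between libraries, for BnaA03g03740D from 528.5 to 627.3 bases. The 21 genes of 500 to 600 bases had a median of 683 CPM in SW and a median ratio of 4.34, and SW replicate 1 was their lowest SW library in 16. Of the 21, 11 carried an A subgenome ID.

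Per length, these short genes led the set. BnaA03g03740D had the highest SW level, 4372 ± 808 FPKM, followed by BnaC04g40580D with 4350 ± 905 FPKM and BnaC04g54510D with 3869 ± 329 FPKM (SD, n = 3 each). BnaA10g20610D came next with 2726 ± 672 FPKM, and the first 2 differed by less than their SDs. Of the 10 genes of highest FPKM in SW, 9 were 500 to 600 bases long, and of the 20 highest, 12. FPKM favours short genes at a given count, and among the other abundant SW genes 1 of the 10 and 3 of the 20 of highest FPKM had that length. BnaA01g30490D, first by CPM, had an approximate length of 2224 bases and was only the eleventh per length, with 1636 ± 526 FPKM.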

How the data were processed

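RNA from immature seeds of 4 lines, 3 libraries each, was sequenced from poly-A selected RNA by a protocol that does not mention strand, per the labels' protocols. Tools named in the submitters' processing notes are bcl2fastq, HISAT2 and DESeq2, with no version. Neither build nor annotation nor counter was given in the sources used here. Whether reads of overlapping or antisense genes were kept apart is therefore not known. Each deposited file lists, per the file headers, a raw count and an FPKM for every gene. The deposited counts were whole numbers. The FPKM deposited by the authors served for levels per length and approximate lengths (genes with at least 10 counts) and entered no test. Lines were taken from the sample titles.

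CPM was the count divided by the library total over all listed genes, and 3 counts correspond to between 0.0736 and 0.0995 CPM, by depth. This floor and the 95% intervals cover counting error only. The 43708 genes present in all 12 libraries entered edgeR 4.0.16, run in R 4.3.3 (TMM scaling, filterByExpr, which removed 0 genes, quasi-likelihood F test, 1 coefficient per line, all 12 libraries in 1 fit). Adjusted p-values are Benjamini-Hochberg over these genes with a threshold of 0.05. TMM factors were 0.7795, 0.9141 and 0.7662 in YH25005 and 1.002 to 1.144 in the other lines. Contrasts with SW are described without a test, because they chose the genes. The test script was tested on simulated data. DESeq2 1.42.0, other scalings, blocks, single libraries left out and other limits of the rule were tried as alternatives.

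Genes named are the 10 of highest SW mean, the 10 of highest ratio, the 3 on either side of each limit, the 5 of highest and lowest CV, the 3 of lowest adjusted p per contrast and those with a name or sequence in the reference, and others are said to be named after their values were seen or belong to a described group such as neighbours or lengths. The genes, lists and intervals were chosen with earlier results of these data known. A reference table of the Da-Ae assembly matched 6 of the 176 genes (BnaC07g36650D, BnaC09g28090D, BnaC02g24890D, BnaA05g14600D, BnaA10g01350D and BnaC06g09690D) and named 0, so no coordinates, sequences or functions are given.

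Same-numbered libraries of A28 and R8Q10 deviated together from their line means (correlations across genes 0.118, 0.581 and 0.432), so their numbers were taken as paired from the data. The pairing was weak for replicate 1. By CPM without TMM scaling, A28 replicate 1 correlated at 0.147 with R8Q10 replicate 1 and at 0.245 with R8Q10 replicate 3. The main fit used no replicate block. With the replicate block in the 12-library fit 53 genes passed between these lines, against 21.8% of all genes. The labels do not say that a number marks a shared plant or day. Over all 6 pairs of lines 8 of 18 such correlations were over 0.1.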

Additional observations from a re-analysis of the deposited data

Results flagged for a closer look

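A gene added by the authors to the annotation, Brassica_napus_newGene_2062, met the level and ratio of the rule but was not among the annotated genes considered. It had 212, 134 and 230 CPM in SW, a mean of 192 CPM, and a ratio of 2.14 to the next line.

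Of the 3131 genes listed for SW and YH25005 but not for A28 and R8Q10, 2 had at least 150 CPM in SW and at least 2 times the YH25005 level. BnaCnng51680D had 343, 297 and 244 CPM in SW, a mean of 294 ± 49.5 CPM (SD, n = 3), and 0 counts in all 3 YH25005 libraries. BnaA02g01930D had a mean of 156 CPM from 96.8, 373 and 0 CPM, so it rested on SW replicate 2. Their levels in A28 and R8Q10 were not analysed here.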

How the results depend on the processing

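The set shrank to 104 genes with a level of 300 CPM in SW, to 99 with a ratio of 3 and to 63 when every SW library had to reach 150 CPM and 2 times every other library, a rule added after seeing the data. It held 169 genes with TMM-scaled CPM, 179 with medians and 247 at 100 CPM. Leaving out 1 library gave 167 to 192 genes, an A subgenome share of 52.5% to 54.5%, a median CV in SW of 15.2% to 28.4% and a p for the share of counts of 0.132 to 0.561.

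Without 1 library, 33 to 52 genes passed between A28 and R8Q10, 13 to 35 between A28 and YH25005, 31 to 53 between R8Q10 and YH25005, and 48 to 72 over the 3 lines. The shares of all genes ranged in parallel over 16.3% to 24.9%, 17.1% to 36.4%, 14.2% to 28.6% and 27.8% to 46.8%. Without A28 replicate 2, 20 genes in place of 10 were lower in A28 than in R8Q10. The share of all genes in either direction was then 24.9% in place of 21.7%. Without R8Q10 replicate 3, 23 in place of 37 were higher in A28 than in R8Q10 (16.5% of all genes in either direction). Lower in R8Q10 than in YH25005 were 21 in place of 34 without R8Q10 replicate 3 or YH25005 replicate 3. The share of all genes in either direction was 14.7% and 14.4% in these fits, in place of 23.4%. The replicate block gave 53, 35, 53 and 75 in the same order, with 21.8%, 29.4%, 25.4% and 40.6% of all genes in parallel. With only the lines compared in the fit the counts were 33, 20, 54 and 62 (of all genes 14.2%, 18.1%, 31.5% and 35.2%), and with the block added, chosen after seeing the data, 59, 14, 37 and 62 (of all genes 20.9%, 8.5%, 19.3% and 34.5%). In that blocked 2-line fit 39 genes were higher in A28 than in R8Q10 and 20 lower. DESeq2 called 63, 37, 58 and 83 (of all genes 27.4%, 34.7%, 31.1% and 48.5%). The numbers were not taken as paired between YH25005 and the other lines. The causes of these shifts were not tested. All 9 named results of lowest adjusted p kept their direction and passed under every alternative run.

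With 3 libraries per line, a difference that did not pass is not shown to be absent. Levels of single copies depend on how shared reads were counted.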
